A study of Mus musculus with 38 samples.

Results

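The genes described here handle the entry of pyruvate into mitochondrial oxidation. Mpc1 and Mpc2 are the subunits of the mitochondrial pyruvate carrier. Pdha1, Pdhb, Dlat and Dld are subunits of the pyruvate dehydrogenase complex. Pdk1, Pdk2, Pdk3 and Pdk4 are the kinases that switch the complex off. These genes are the 10 of 54352 rows of the count table whose Ensembl identifiers carry these symbols in the GENCODE annotation of mouse mm10. Together they took 0.0995% of all counts. The rule that picks the rows uses no measured value, but the members were chosen with earlier results of these data known.

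RNA came from intestinal stem cell organoids of C57BL6 mice, which are small epithelial cultures grown from crypts. The crypts were kept in 65% matrigel for 8 days with 2 passages, in 1 uM GW501516 (GW), an agonist of the nuclear receptor PPARδ, dissolved in DMSO, or in 0.1% DMSO vehicle (Veh). The mice were wild type (WT), Ppard-fl/fl (D), Ppara-null (A) or both Ppard-fl/fl and Ppara-null (DA), and all were on the C57BL6 background. Ppard is the gene of PPARδ and Ppara that of its relative PPARα. The labels name no recombinase for the floxed allele, and they do not say whether the libraries of a group came from separate animals or cultures, so p-values measure only the spread between these libraries. There were 5 GW and 5 Veh libraries in WT, 4 GW and 5 Veh in D, 5 GW and 5 Veh in A, and 5 GW and 4 Veh in DA. 1 sample titled as GW in D has a genotype label that names both genes. It was grouped by its title, and which of the 4 GW columns in D it is cannot be told from the column names. Replicate numbers below follow the order of the columns and need not match those in the sample titles.

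Pyruvate, the end product of glycolysis, crosses the inner mitochondrial membrane through the carrier, which works as a pair of Mpc1 and Mpc2. The dehydrogenase complex then turns it into acetyl-CoA for the citric acid cycle. The kinases phosphorylate the E1 alpha subunit and so stop this step, and Pdk4 is a textbook target of PPAR receptors in fat-burning tissues. In the intestinal crypt, low carrier activity in stem cells compared with their differentiated progeny is part of what is known of their metabolism.

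Polyadenylated RNA was profiled by 3′ digital gene expression, which counts tags at the 3′ end of transcripts. Total counts per library ran from 353347 to 577557, and 9660 to 11085 genes had a count. CPM below is a gene's count after its library is scaled to a total of 1000000. Since this is bulk RNA, fewer cells of a type and less RNA per cell cannot be told apart. The library numbers in the column names form 2 runs, 1 to 36 with 24 libraries and 37 to 60 with 14, and both runs hold every group. In 18 of the 24 libraries of the first run and in 0 of the 14 of the second, Xist, which is made from the inactive X, was above the sum of Y-linked genes. Of the markers fixed for other cells, Col1a1, Col1a2 and Col3a1 of stroma, Ptprc and Cd3e of immune cells, Cdh5 of endothelium and Myh11 and Des of muscle were at 0 in all 38 libraries. Over all libraries the other stromal genes had 4 counts, the other muscle gene 5 and the other immune genes 32. The remaining endothelial gene, Pecam1, had 488 counts, at 12.7 to 35.3 CPM with GW and 15.6 to 54.3 CPM with Veh. The summed stem cell markers, a list of 4 genes, ran from 102 to 178 CPM with GW and from 116 to 268 CPM with Veh. Olfm4, a marker of crypt stem cells, was lower with GW by a mean log2 fold change of -0.77 ± 0.15 (SE), with an adjusted p of 0.00152 (Benjamini-Hochberg adjustment over all genes tested, edgeR). It was the 1 of 3 tested stem cell markers that passed. The summed enterocyte markers, a list of 7 genes, ran from 6637 to 60985 CPM with GW and from 7874 to 35380 CPM with Veh. In WT they ran from 27607 to 60985 CPM with GW and from 14541 to 20867 CPM with Veh. In A these sums ran from 17666 to 29584 CPM with GW and from 9079 to 12555 CPM with Veh. The medians were 32658 CPM with GW and 19809 CPM with Veh in D. In DA they were 9330 CPM with GW and 9704 CPM with Veh. Of these 7, 3 had a mean log2 fold change above 0 and 4 below, with a median of -0.0056, and 1 passed, Fabp1, a PPAR target itself, at 0.74 ± 0.15 (SE; adjusted p = 0.00258, edgeR). Taken over all genotypes, the ranges of GW and Veh overlap for both lists. Within genotypes the enterocyte sums of GW lay above those of Veh in WT and A, and overlapped in D and DA. The stem cell sums overlapped in every genotype. The sums were not tested. As a check of the treatment, Angptl4, a PPAR target that encodes a secreted lipase inhibitor, averaged 95.2 ± 19.2 CPM in GW libraries of WT and 24.0 ± 7.83 CPM in Veh libraries (SD, n = 5 each). Its log2 fold change in WT was 1.95 ± 0.24 (SE; adjusted p = 9.43e-07, edgeR). Ppara in DA against WT under Veh had a log2 fold change of -3.04 ± 0.63 (adjusted p = 0.0238, edgeR). Ppard had too few counts to check its deletion.

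The stretches of 250 bases before the annotated start are shown for Mpc1, which has 2 starts in the RefSeq table, and for Pdk4, because most of the results below turn on these genes. The table is of build GRCm38.p6, and all 10 genes matched it, in 13 entries. For Mpc1 and Pdk4 its starts lie inside the GENCODE gene spans given below. The Mpc1 stretches fall within the span of that gene, and the Pdk4 stretch overlaps the end of its span. Each is printed 5′ to 3′ on the strand of the gene, with capitals for the hexamer that PPAR receptors and their partners bind (AGGTCA on either strand).

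Mpc1, first start, chr17:8283537-8283786, plus strand: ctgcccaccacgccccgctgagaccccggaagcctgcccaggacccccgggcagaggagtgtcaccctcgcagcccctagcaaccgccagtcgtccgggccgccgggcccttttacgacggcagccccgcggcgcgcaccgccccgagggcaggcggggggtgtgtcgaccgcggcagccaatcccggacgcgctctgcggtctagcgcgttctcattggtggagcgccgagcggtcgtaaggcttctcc

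Mpc1, second start, chr17:8284204-8284453, plus strand: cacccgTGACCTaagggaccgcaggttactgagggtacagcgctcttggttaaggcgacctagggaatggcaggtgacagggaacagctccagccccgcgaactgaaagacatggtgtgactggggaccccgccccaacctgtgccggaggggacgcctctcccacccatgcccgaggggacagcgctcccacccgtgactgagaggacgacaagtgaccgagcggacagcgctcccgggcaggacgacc

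Pdk4, chr6:5496279-5496528, minus strand: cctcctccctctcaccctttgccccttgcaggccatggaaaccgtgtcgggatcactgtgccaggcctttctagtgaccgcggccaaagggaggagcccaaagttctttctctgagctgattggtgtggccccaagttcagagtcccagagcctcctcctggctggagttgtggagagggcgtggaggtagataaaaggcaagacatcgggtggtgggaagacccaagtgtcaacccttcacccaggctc

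The hexamer was found once in these 3 stretches, on the minus strand at position -244 from the second Mpc1 start, and 14.02% of the 32851 windows of this length in the table hold it. The direct repeat AGGTCANAGGTCA was in none of the 13 entries and in 0.0335% of all windows. The core ACGTG of the hypoxia response element, which 16.6% of all windows hold, was found for Pdhb at -248, for Pdk2 at -126 on the minus strand and -125 on the plus strand within one CACGTG, and for Pdk3 at -53. CACGTG was in 6.02% of all windows. A match describes letters only, and a window without one says nothing of binding.

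Mpc1, the carrier subunit on chromosome 17 (8282904 to 8297661, plus strand, mm10), was lower with GW. Over the 4 genotypes the mean log2 fold change was -0.28 ± 0.06 (SE), a fold of 0.824, with an adjusted p of 0.0182 in edgeR's quasi-likelihood test over 4729 genes. Of the 6 members that passed the filter on low counts, this was the 1 that passed the test, against 0.634% of all genes tested, which is 30 genes, 26 higher and 4 lower with GW. The estimates for the other 5 members were also below 0, between -0.19 and -0.01. The median over the 6 was -0.08 and that over all genes 0.00.

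In WT, the GW libraries had 408, 374, 356, 299 and 339 CPM of Mpc1. The Veh libraries of WT had 423, 471, 429.9, 469 and 425 CPM. All 5 GW libraries were below all 5 Veh libraries. Among all genes tested, 0.296% were separated in this direction in WT, and Mpc1 was the 1 member among them. No tested member was separated with GW higher in any genotype, against 0.719% of genes in WT, 0.529% in D, 0.465% in A and 0.465% in DA, or with GW lower in the other genotypes, against 0.529% in D, 0.402% in A and 0.359% in DA. In D, Mpc1 was at 371, 353, 423 and 352 CPM in GW libraries and at 452, 410.4, 521, 462 and 435 CPM in Veh libraries. The ranges overlapped through 1 GW library and 1 Veh library. In A, it was at 356, 357, 356, 322 and 399.8 CPM in GW libraries and at 513, 455, 375, 459 and 439 CPM in Veh libraries. Here too 1 library of each treatment made the overlap, the GW one at 399.8 and the Veh one at 375 CPM. In DA, the GW libraries held 394, 389.8, 366, 312 and 318 CPM, against 368, 417, 424 and 416 CPM in the Veh libraries. The lowest Veh library of DA, at 368 CPM, lay among the GW libraries, and the other 3 lay above them.

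The group means of Mpc1 were 355 ± 40.6 CPM with GW and 444 ± 24.3 CPM with Veh in WT (SD, n = 5 each). They were 375 ± 33.5 CPM (n = 4) with GW and 456 ± 41.3 CPM (n = 5) with Veh in D. In A they were 358 ± 27.8 CPM with GW and 448 ± 49.4 CPM with Veh (n = 5 each), and in DA 356 ± 39.0 CPM (n = 5) with GW and 406 ± 25.7 CPM (n = 4) with Veh. The order of the 8 means put the 4 GW groups lowest, and they did not differ from each other beyond their spread. The 4 Veh groups followed, with DA lowest among them. The log2 fold changes within single genotypes were -0.35 ± 0.12 in WT, -0.30 ± 0.13 in D, -0.29 ± 0.12 in A and -0.18 ± 0.13 in DA (SE). None passed over all genes by edgeR's quasi-likelihood test: the adjusted p was 0.445 in WT, 1.00 in D, 0.999 in A and 1.00 in DA. The difference of the response from that of WT was 0.05 ± 0.18 in D, 0.06 ± 0.18 in A and 0.17 ± 0.18 in DA, with adjusted p of 1.00 each in edgeR. The 95% interval of the last ran from -0.19 to 0.53 and so includes 0 as well as a loss of the whole WT response.

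**Figure D1:**
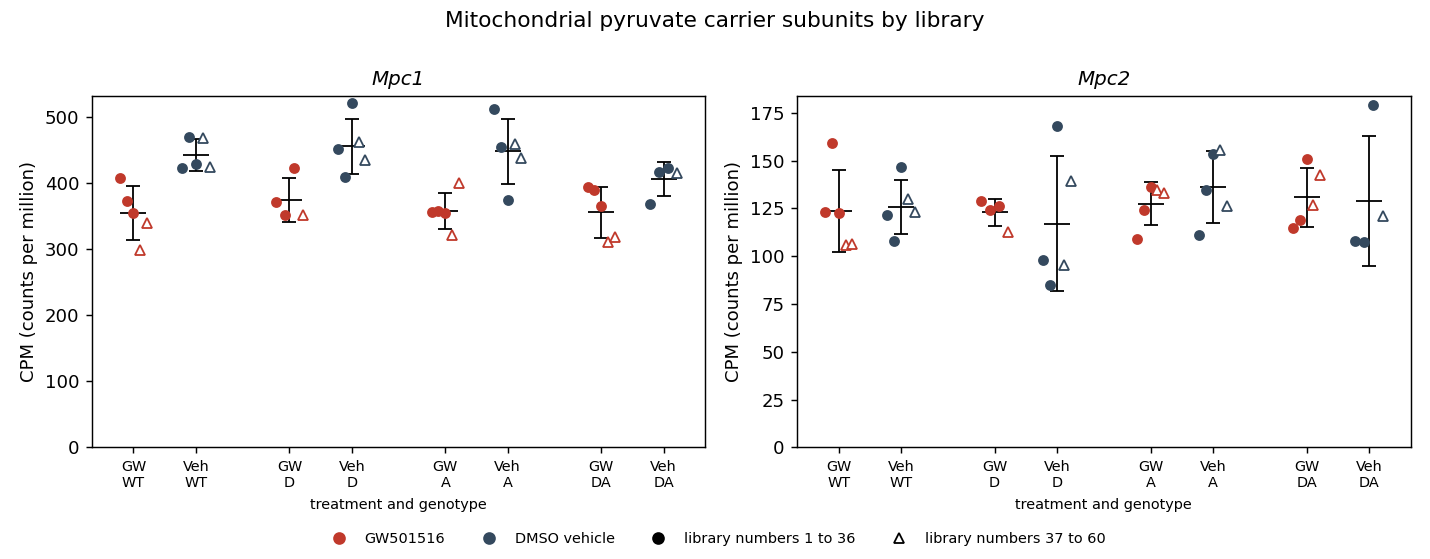
CPM of Mpc1 and Mpc2 (linear axes from 0) in each of the 38 libraries, by treatment and genotype, with GW left of Veh; horizontal bars are group means, error bars the SD, and triangles mark libraries numbered 37 to 60. In WT the 5 GW libraries of Mpc1 lie at or below 408 CPM and the 5 Veh libraries at or above 423 CPM, while the Mpc2 groups overlap throughout.

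The adjusted p of the mean Mpc1 effect was 0.0779 without the filter on low counts, 0.327 in the 24 libraries numbered 1 to 36 alone (log2 fold change -0.23), 0.0628 in the 14 numbered 37 to 60 alone (-0.40) and 0.0505 without replicate 4 of GW in D (-0.26), all in edgeR. With the run of library numbers as a block it was 0.00109, at -0.28, and with the 6 sets of library numbers as a block, added after the data were examined, 0.00284, at -0.27. Mpc1 also differed between the runs, by a log2 fold change of -0.21 ± 0.06 for late minus early (adjusted p = 0.00389, edgeR), in a comparison where 25.6% of all genes passed and which was added after the data were examined. The antisense gene 4930506C21Rik overlaps Mpc1 and had 98 counts in all libraries against 7305 for Mpc1; whether counting used strand is not given in the sources used here. Olfm4 and Fabp1, given above, also differed with GW, and the part of stem cells and enterocytes in the Mpc1 difference was not tested.

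Mpc2, the partner subunit on chromosome 1 (165460637 to 165481214, plus strand), did not pass in any comparison. It averaged 123 ± 21.5 CPM with GW and 126 ± 14.1 CPM with Veh in WT, and 123 ± 7.05 CPM with GW and 117 ± 35.2 CPM with Veh in D. In A the means were 128 ± 11.3 CPM with GW and 136 ± 18.7 CPM with Veh, and in DA 131 ± 15.5 CPM with GW and 129 ± 34.0 CPM with Veh (SD, n as above). The ranges of all 8 groups overlapped. The mean log2 fold change over genotypes was -0.01 ± 0.09 (SE; adjusted p = 0.994, edgeR), with a 95% interval of -0.19 to 0.17. The highest single values, 179 CPM in replicate 3 of Veh in DA and 168 CPM in replicate 3 of Veh in D, were both in Veh groups. A difference between the changes of the 2 carrier subunits was not tested.

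The subunits of the dehydrogenase showed no change with GW that passed the test. Pdha1, the E1 alpha subunit that the kinases phosphorylate, lies on chromosome X (160122209 to 160138413, minus strand). In WT it ranged from 155 to 269 CPM with GW, with a median of 220, and from 168 to 285 CPM with Veh, with a median of 229. Of the 8 group means the lowest was 208 ± 35.8 CPM, for GW in A, and the highest 227 ± 44.8 CPM, for Veh in WT (SD, n = 5 each), less than 1 SD apart. The log2 fold change was -0.10 ± 0.14 in WT, -0.04 ± 0.15 in D, -0.06 ± 0.14 in A and -0.05 ± 0.15 in DA (SE). Their mean, -0.06 ± 0.07, had an adjusted p of 0.934 in edgeR and a 95% interval of -0.21 to 0.08.

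Pdha1 differed instead between the runs of library numbers. It averaged 257 ± 26.0 CPM in the 14 late libraries (211 to 287) and 194 ± 27.2 CPM in the 24 early ones (152 to 247) (SD). Late minus early, the log2 fold change was 0.28 ± 0.06 (SE; adjusted p = 0.000659, edgeR with run in the model; 25.6% of all genes passed in this comparison). The runs also differed in Xist, as given above. Some early libraries had Y-linked genes above Xist, as all late ones did. They included replicate 1 of GW in each genotype, with 220, 206, 191 and 219 CPM of Pdha1 in WT, D, A and DA. The others were replicate 1 of Veh in WT and in DA, with 229 and 238 CPM. The part of sex in the run difference was not tested. Since the labels do not say what the numbers stand for, the preparation and the sequencing of the runs cannot be told apart.

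Pdhb, the E1 beta subunit on chromosome 14 (8165996 to 8173025, minus strand), was measured with 13 to 45 counts per library. With GW it averaged 56.9 ± 6.31 CPM in WT, 69.5 ± 21.6 in D, 49.1 ± 24.5 in A and 48.2 ± 13.7 in DA, and with Veh 62.5 ± 22.8 CPM in WT, 69.7 ± 7.49 in D, 64.5 ± 13.97 in A and 55.8 ± 14.8 in DA (SD). GW means were the lower ones in each genotype, by less than 1 SD of at least 1 of the groups compared. In A, the 3 early GW libraries had 37.8, 27.2 and 32.8 CPM and the 2 late ones 86.4 and 61.2 CPM. The Veh libraries of A had 49.1, 49.6, 70.8, 76.0 and 76.8 CPM, so the early GW libraries were below all of them and the late ones were not. The log2 fold change in A was -0.36 ± 0.25 (adjusted p = 0.999, edgeR), and the mean over genotypes -0.19 ± 0.13 (adjusted p = 0.849, edgeR; 95% interval -0.44 to 0.06).

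Dlat, the E2 subunit that carries the lipoyl group and takes up the acetyl unit, lies on chromosome 9 (50634633 to 50659780, minus strand). It was measured with 2 to 20 counts per library, the fewest of the 6 members tested. In DA it had 22.9, 30.4, 28.9, 22.8 and 9.76 CPM with GW, against 10.2, 14.8, 20.6 and 13.2 CPM with Veh. There 4 of the 5 GW libraries were above all 4 Veh libraries and the remaining one was below them. In WT it had 16.2, 17.9, 7.06, 17.3 and 15.8 CPM with GW, against 20.2, 20.8, 13.9, 19.5 and 20.9 CPM with Veh. Here 4 of the 5 Veh libraries were above every GW library. The log2 fold changes were -0.39 ± 0.36 in WT, -0.36 ± 0.37 in D, -0.29 ± 0.35 in A and 0.63 ± 0.37 in DA (SE). None passed (adjusted p = 0.895 in WT and 0.999 or more in the others, edgeR). The response in DA minus that in WT was 1.01 ± 0.52, with an unadjusted p of 0.0569 and an adjusted p of 1.00 in edgeR.

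Dld, the E3 subunit on chromosome 12 (31331277 to 31351453, minus strand), reoxidises the lipoyl group and also serves the 2-oxoglutarate dehydrogenase, branched-chain and glycine cleavage complexes. The lowest of its group means was 140 ± 44.3 CPM, for GW in DA, and the highest were 154 ± 33.0 CPM for GW in WT and 154 ± 38.3 CPM for Veh in A (SD), with overlapping ranges throughout. In WT it ranged from 112 to 202 CPM with GW and from 106 to 182 CPM with Veh. The mean log2 fold change was -0.02 ± 0.09 (adjusted p = 0.989, edgeR), with a 95% interval of -0.19 to 0.16. In D the GW libraries lay closest together of the Dld groups, at 154, 163, 133 and 163 CPM.

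**Figure D2:**
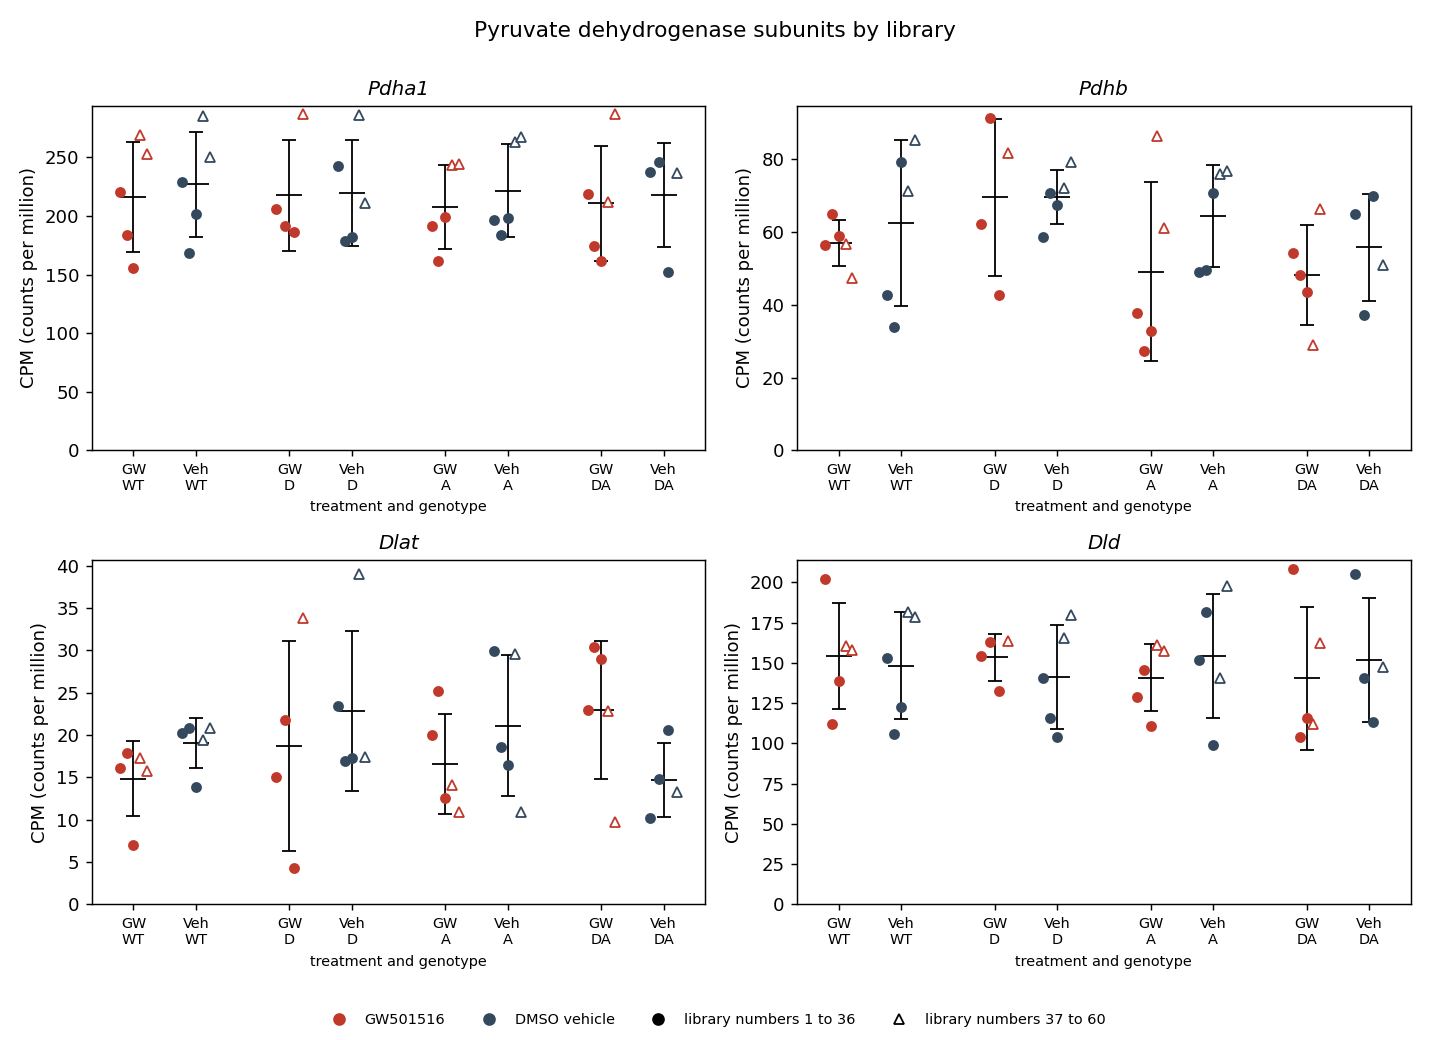
CPM of the dehydrogenase subunits Pdha1, Pdhb, Dlat and Dld (linear axes from 0, each gene on its own scale) in each of the 38 libraries, by treatment and genotype, with GW left of Veh; bars are means with SD, and triangles mark libraries numbered 37 to 60. GW and Veh groups overlap for every gene in every genotype, and the Pdha1 triangles, at 211 to 287 CPM, lie mostly above the circles, at 152 to 247 CPM.

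**Figure D3:**
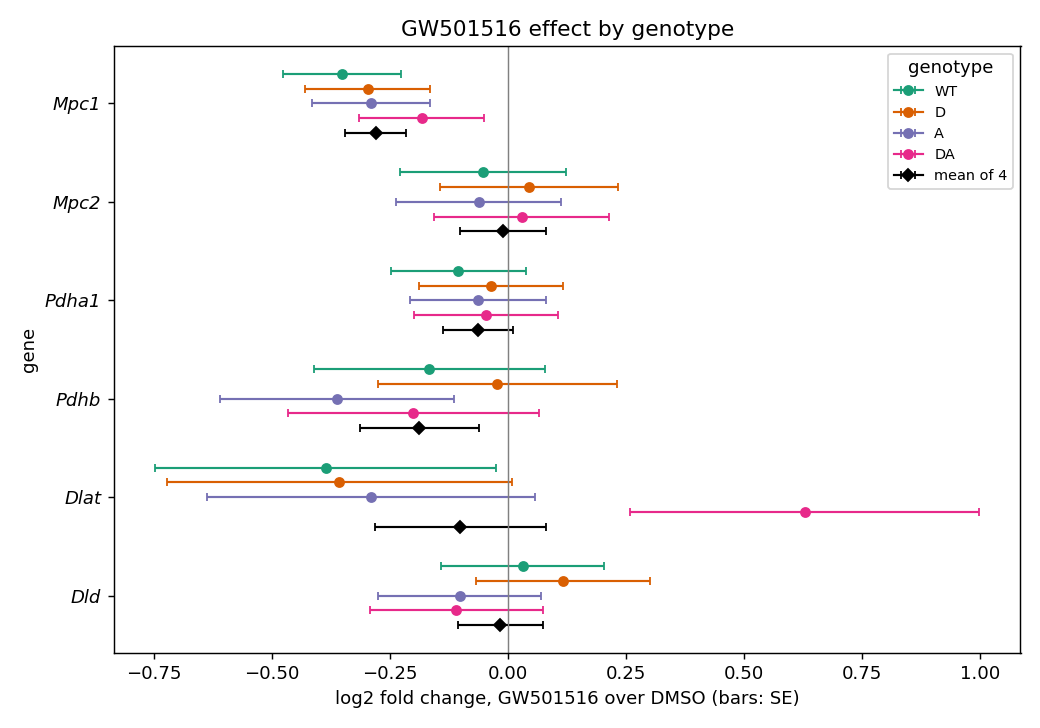
Log2 fold change of GW over Veh (x axis) for the 6 members that could be tested (y axis), by genotype and as the mean of the 4 genotypes, with SE as bars. The Mpc1 estimates all lie below 0, between -0.35 and -0.18, while those of Mpc2, Pdha1 and Dld lie within 0.12 of 0 and Dlat spans -0.39 to 0.63.

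The kinases were near the limit of detection, and all 4 were removed by the filter on low counts, so their counts are given as they are. Over all 38 libraries Pdk1 had 189 counts, Pdk2 62, Pdk3 103 and Pdk4 21. They were compared on CPM with exact permutation tests within a genotype, and by permuting labels within genotypes over all libraries (100000 resamples). The smallest possible p of the exact tests is 0.00794 without ties, and it is larger where many libraries are at 0. There were 15 tests of the first kind and 4 of the second, all two-sided, and their p-values are not adjusted.

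Pdk4, the kinase of fasting and fat oxidation, lies on chromosome 6 (5483351 to 5496309, minus strand). The GW libraries of WT had 2, 1, 2, 4 and 0 counts of it and the Veh libraries of WT had none. In A, the GW libraries had 4, 0, 2, 1 and 1 counts, against 0 in all 5 Veh libraries. In D, it had 0, 0, 0 and 2 counts with GW and 0, 2, 0, 0 and 0 with Veh. In DA it was at 0 in all 5 GW and all 4 Veh libraries. In all, 19 counts fell in 9 of the 19 GW libraries and 2 counts in 1 of the 19 Veh libraries.

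A group with a count of 0 was given a floor of 3 counts, which was 1.22 CPM for Veh in WT and in A. Over the group, Pdk4 with GW was 3.25 times this floor in WT (9 counts, 3.95 CPM) and 2.84 times in A (8 counts, 3.46 CPM). These ratios leave out the counting error of the GW counts, so they are not lower limits of the fold. The counting interval in WT was 1.81 to 7.50 CPM with GW and 0 to 1.49 CPM with Veh. In A it was 1.492 to 6.81 CPM with GW and 0 to 1.498 CPM with Veh, so these intervals overlapped. In D the ratio of GW to Veh was 1.41, with a counting interval of 0.103 to 19.5. For DA no fold can be given, since both groups were under the floor, at 1.28 CPM for GW and 1.47 CPM for Veh. Intervals and floors cover counting error only. The exact permutation p was 0.0476 in WT, 0.0476 in A and 1.0 in D. In WT and A this is the smallest p that the test can give with so many libraries at 0. Over all genotypes the GW libraries were 2.02 CPM higher (permutation p = 0.00946). In the fit without the filter, Pdk4 did not pass over all genes (adjusted p = 0.363 in WT and 0.661 in A, edgeR), nor did DA against WT under GW (adjusted p = 0.174, edgeR). These values do not test a difference in the Pdk4 response between genotypes, so none was shown at this depth. Without any 1 of the Veh libraries the exact p in WT and in A was 0.0873. Within libraries 1 to 36 the pooled difference was 1.61 CPM (permutation p = 0.124) and within 37 to 60 it was 3.17 CPM (permutation p = 0.0272).

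Pdk1, a kinase induced by hypoxia through HIF, lies on chromosome 2 (71873224 to 71903858, plus strand). In WT it had 7, 8, 1, 3 and 6 counts with GW and 1, 0, 7, 8 and 4 with Veh. In D it had 6, 6, 2 and 3 counts with GW and 6, 3, 10, 14 and 9 with Veh. Pooled per group this was 10.97 CPM with GW and 8.10 CPM with Veh in WT, and 9.73 CPM with GW and 16.99 CPM with Veh in D. In A, it had 1, 7, 3, 6 and 2 counts with GW and 4, 5, 3, 8 and 5 with Veh, and in DA 1, 8, 0, 3 and 5 with GW and 0, 9, 7 and 8 with Veh. The treatments overlapped in every genotype. The difference over all genotypes was -2.54 CPM (permutation p = 0.229), and within libraries 37 to 60 it was -6.90 CPM (permutation p = 0.0369).

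Pdk3, a kinase gene on chromosome X (93764607 to 93832201, minus strand), had 0 to 7 counts per library. In DA the GW libraries had 2, 3, 1, 1 and 4 counts and the Veh libraries 4, 6, 3 and 6. The exact permutation p there was 0.0635. In WT it had 4, 1, 1, 2 and 4 counts with GW and 4, 2, 2, 4 and 2 with Veh (exact permutation p = 0.643). Over all genotypes the difference of GW minus Veh was -2.30 CPM (permutation p = 0.0264). Without replicate 4 of GW in D this was -1.99 CPM (permutation p = 0.0577), without replicate 4 of Veh in A -1.84 CPM (permutation p = 0.0563), and within libraries 1 to 36 -1.13 CPM (permutation p = 0.242).

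Pdk2, the kinase found in most tissues, lies on chromosome 11 (95026258 to 95041354, minus strand) and had 0 to 4 counts per library. Group sums were 4 counts with GW and 5 with Veh in WT, 9 with GW and 8 with Veh in D, 12 with GW and 7 with Veh in A, and 9 with GW and 8 with Veh in DA. In A, all 5 GW libraries had 2 or 3 counts, while the Veh libraries had 4, 0, 0, 0 and 3. The exact permutation p in A was 0.238, and over all genotypes the difference was 0.963 CPM (permutation p = 0.224).

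**Figure D4:**
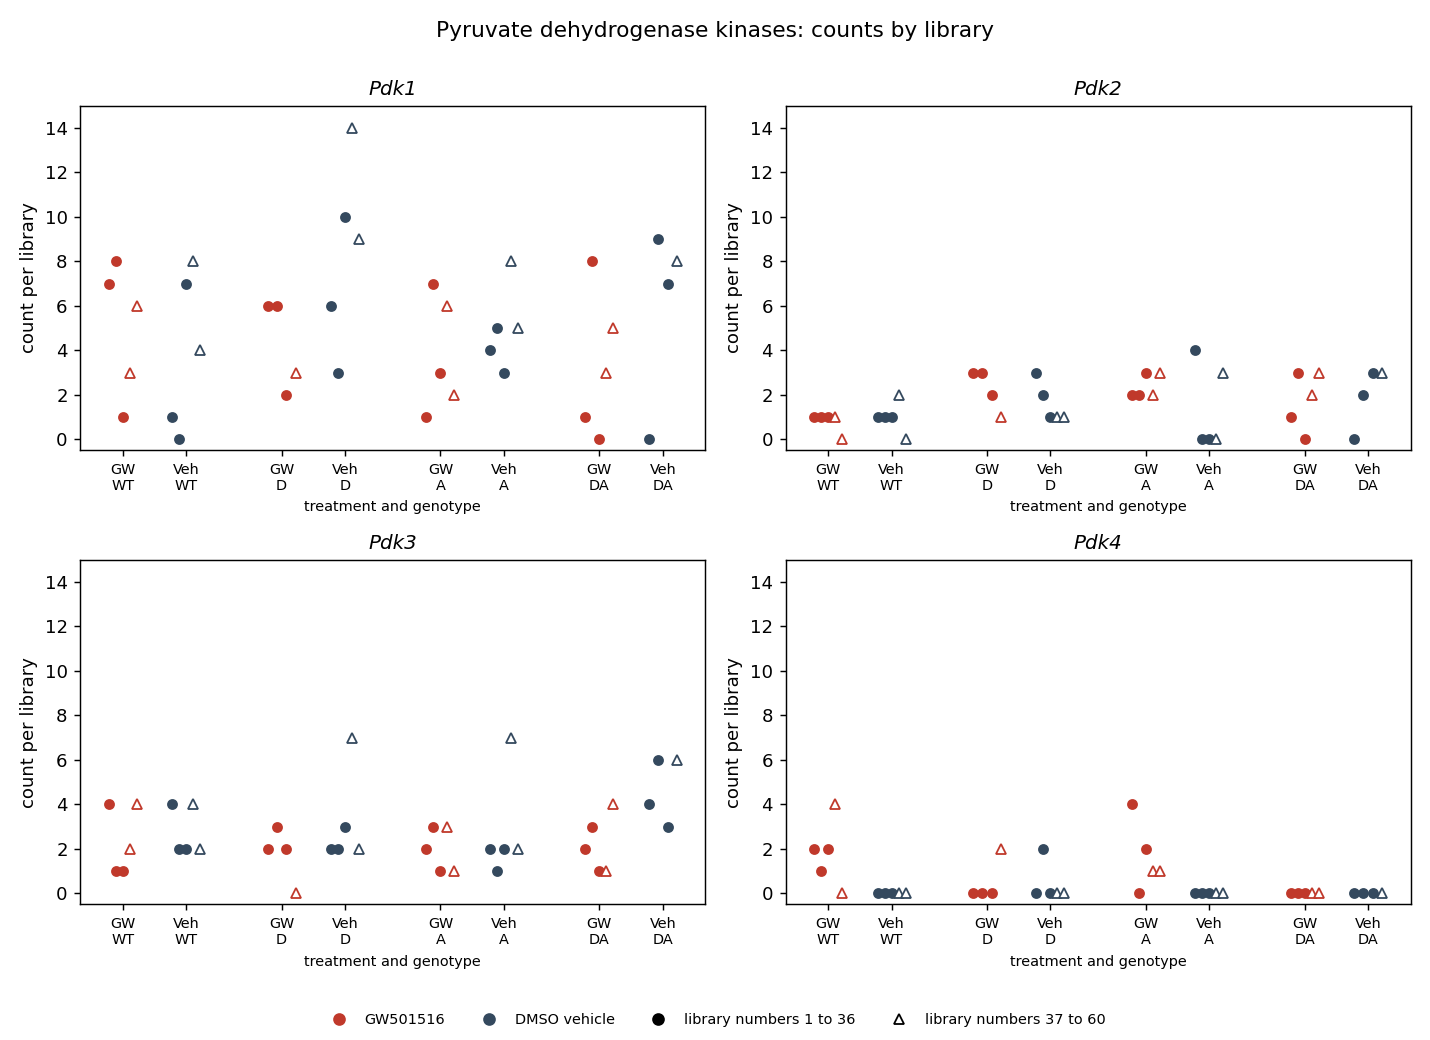
Counts of Pdk1, Pdk2, Pdk3 and Pdk4 in each of the 38 libraries (y axis, counts, the same scale in each panel), by treatment and genotype, with GW left of Veh; triangles mark libraries numbered 37 to 60. Pdk4 has counts in 4 of 5 GW libraries in WT and in 4 of 5 in A and in none of their Veh libraries, and none in DA.

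The genotypes were also compared with WT under each treatment. For D and DA this compares the genotypes as labelled, since the deletion of Ppard could not be checked. No member passed in any of these 6 comparisons or in the 3 differences of the GW response from WT, by edgeR, DESeq2 or limma-trend, and none had an unadjusted p under 0.05 in edgeR. The genes that passed were 0.0423% of those tested for D, 0.148% for A and 0.296% for DA under Veh. Under GW they were 0.0634% for D, 0.233% for A and 0.846% for DA. For the response differences they were 0% in D, 0% in A and 0.0846% in DA. At an unadjusted p under 0.05 there were 3.43%, 4.42% and 6.26% of genes for D, A and DA under Veh, 3.68%, 4.97% and 9.05% for D, A and DA under GW, and 3.47%, 3.45% and 4.25% for the response differences in D, A and DA. Of the members, Mpc1 in DA against WT under Veh had a log2 fold change of -0.19 ± 0.13 (95% interval -0.45 to 0.07; adjusted p = 0.940, edgeR). Dlat in DA against WT under GW had 0.58 ± 0.35 (95% interval -0.11 to 1.28; adjusted p = 0.673, edgeR). Pdhb in D against WT under GW had 0.31 ± 0.26 and in A against WT under GW -0.22 ± 0.25 (adjusted p = 1.00 and 0.990, edgeR). Single genotype comparisons of GW with Veh likewise called 0 of the 6 members by edgeR, DESeq2 or limma-trend, against 0.423% of genes in WT, 0% in D, 0.296% in A and 0% in DA. At an unadjusted p under 0.05 they held 1 of 6 members in WT, D and A, which was Mpc1 each time, and 0 in DA, against 6.39%, 3.11%, 3.62% and 3.19% of genes tested.

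Around the carrier and the dehydrogenase, 1 gene of the lists passed. Of 17 genes of other pyruvate handling, 7 could be tested. Me1, the cytosolic malic enzyme that makes pyruvate and NADPH from malate, rose with GW in WT by a log2 fold change of 2.15 ± 0.39 (adjusted p = 0.00137, edgeR) and on average over genotypes by 1.04 ± 0.21 (adjusted p = 0.00256, edgeR). In D, A and DA alone its values were 1.13 ± 0.44, 1.05 ± 0.39 and -0.15 ± 0.41, none of which passed, and the response in DA minus that in WT was -2.30 ± 0.58 (adjusted p = 0.200, edgeR). Ldha, which turns pyruvate into lactate, had a mean log2 fold change of -0.22 ± 0.11, Slc16a1, a lactate and pyruvate transporter of the plasma membrane, 0.16 ± 0.16, and Pklr, a pyruvate kinase, -0.19 ± 0.21, and none of these 3 passed. The median of the 7 was -0.06 and that of all genes 0.00.

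Of 10 genes that attach lipoate or share Dld, 4 were tested and none passed by edgeR, with 1 of 4 at an unadjusted p under 0.05, a level that 331 of the 4729 genes tested reached in the mean GW effect. That gene was Ogdh, the E1 subunit of 2-oxoglutarate dehydrogenase, at a mean log2 fold change of 0.25 ± 0.12 (adjusted p = 0.617, edgeR). All 15 citric acid cycle genes were tested and none passed by edgeR, with 2 of 15 at an unadjusted p under 0.05. Their mean log2 fold changes had a median of -0.06, against 0.00 for all genes, and 14 of 15 were below 0. Sdhb, the iron-sulphur subunit of succinate dehydrogenase, had -0.18 ± 0.07 (adjusted p = 0.347, edgeR) and Suclg2, a succinyl-CoA ligase subunit, 0.26 ± 0.12 (adjusted p = 0.600, edgeR). Of 15 genes of the hypoxia response, which includes Pdk1 as a known target, 10 were tested and none passed by edgeR, with 1 of 10 at an unadjusted p under 0.05. That gene was Ankrd37, at -0.94 ± 0.30 (adjusted p = 0.248, edgeR).

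The genes whose 8 group means followed Pdk4 most closely among the 4729 tested were Apoa4 and Cmtm4 (Spearman's rho 0.970 each) and Rab9 (0.958). For Pdha1 they included Mthfd2 (0.976) and Cmc2 (0.952). These are descriptions over 8 group means, of which those of Pdk4 rest on 21 counts and 4 are 0.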

How the data were processed

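The submitters' processing notes name mm10 as the genome build, and as tools edgeR 3.26.8, R 3.6.2 and Salmon 1.1.0; annotation release, strand and molecular identifiers are not given in the sources used here. The authors deposited a table of whole-number counts for Ensembl genes. The other deposited table holds log2 values, which the numbers show to be log2(CPM + 1). Turned back into counts, 88.6% of them (zeros left out) came within 0.01 of a whole number, so the deposited counts are rounded estimates. Symbols came from GENCODE M21 for 54109 of 54352 identifiers, and 243 had none.

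A column's group was read from the treatment and genotype that its name holds. Of 57 columns, 38 were used, and 19 with the letters KD were not. Columns carry no replicate numbers, so replicates were numbered in column order. Within-group pairs differed by more than sampling (72 pairs, chi-square per degree of freedom 1.51 to 7.10).

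Genes were filtered with filterByExpr by group, which left 4729. After TMM scaling, 1 model of the 8 groups was fitted with edgeR 4.0.16 (glmQLFit, glmQLFTest) under R 4.3.3, with Benjamini-Hochberg adjustment within a comparison and a threshold of 0.05. An SE is the log2 fold change divided by the square root of its F value. Genes removed by the filter were tested by permutation on CPM, and their counting intervals were computed with scipy 1.17.1. Alternatives were RLE scaling, no filter, DESeq2 1.42.0, limma-trend (limma 3.58.1), a run block, a block for 6 sets of library numbers, either run alone, only the groups compared, no columns with suffix 2 (5 columns that the labels do not explain) and leaving out each library. The fits were tested on simulated data.

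The members and lists were chosen with earlier results of these data known. All 10 members were described whatever their p, with up to 3 members per knockout comparison and, per list, genes that passed and up to 3 others with the smallest p. Likeness was ranked for Pdk4 and Pdha1. Some genes of this rule are not reported here. The late-minus-early comparison, the pooled kinase tests within runs and the set block were added after the data were examined.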

Additional observations from a re-analysis of the deposited data

Results flagged for a closer look

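Each group of 4 or 5 libraries was searched for a library far from the others by Dixon's test at the 95% level. This found 10 of 76 groups, and several of them rest on a handful of counts. The chance rate of about 1 in 20 does not hold for counts that low. Replicate 1 of Veh in DA was the low library for 2 members, with 368 CPM of Mpc1, where the other 3 had 416 to 424 CPM, and 0 CPM of Pdk1. Pdha1 was at 152 CPM in replicate 3 of Veh in DA, against 236 to 247 CPM in the other 3. Dlat was at 7.06 CPM, or 3 counts, in replicate 3 of GW in WT, and at 13.9 CPM in replicate 3 of Veh in WT. Pdk2 was at 0 in replicate 5 of GW in WT. Pdk3 stood high in replicate 4 of Veh in D, at 13.6 CPM, and in replicate 4 of Veh in A, at 13.0 CPM, with 7 counts each; both are late libraries. Pdk4 was at 5.64 CPM in replicate 4 of GW in D and at 5.66 CPM in replicate 2 of Veh in D, with 2 counts each, where every other library of these groups had 0. In such a group a lone library above 0 is flagged whatever its count.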

How the results depend on the processing

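No paired analysis was possible because the columns carry no replicate numbers. The library numbers of the used columns fall into 6 sets, with a new set where the number jumps by 3 or more, and these were fitted as a block in place of a pairing, chosen after seeing the data. This changed no call of a member, and 62 genes passed in the mean GW effect, against 30 without the block. Under RLE scaling and DESeq2 the 56 edgeR results checked held, as did the 46 that could be refitted with only the groups compared. These results were fold changes of members, which kept their direction and their side of the threshold, and counts of members called per comparison, which stayed equal. The mean GW effect uses all groups already. The number of members called in the mean GW effect was 1, and 0 without the filter on low counts, in libraries 1 to 36 alone and in 37 to 60 alone; leaving out single libraries gave 0 to 1. Without the filter the Mpc1 value was -0.30, and leaving out 1 library gave -0.31 to -0.26. The Pdk4 difference over all genotypes was 1.61 CPM in libraries 1 to 36 alone, short of the threshold, and 1.66 to 2.30 CPM with 1 library left out. The Pdk3 one was -4.79 CPM (permutation p = 0.0959) in libraries 37 to 60 and -2.55 to -1.84 CPM with 1 library left out. All reversals were of differences that did not pass in either setting, and the cause was not tested. In libraries 1 to 36 alone these were Mpc2 and Pdhb in WT (0.094 and 0.19), Mpc2 in DA (-0.0077), Mpc2 and Dld on average (0.0049 and 0.070), and the response differences from WT of Pdhb and Mpc1 in D (-0.26 and -0.096) and of Mpc1 in A (-0.060). In libraries 37 to 60 alone they were Dld in WT (-0.25), Mpc2, Pdha1, Pdhb, Dlat and Dld in D (-0.068, 0.20, 0.10, 0.25 and -0.090), Pdha1 in DA and on average (0.079 and 0.019), the response difference of Pdhb in A (0.65) and Pdhb in A against WT under GW (0.54). With the set block they were Dld in WT (-0.056) and Mpc2 in A and on average (0.035 and 0.033). With the run block they were Pdha1 and Pdhb in D (0.0035 and 0.013). Without columns with suffix 2 they were Dld in WT (-0.095), Pdhb in D (0.039) and Pdha1 in DA (0.0031). Without the filter it was Dld in WT (-0.0044), and with limma-trend Mpc2 on average (0.00677).

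With 1 library left out, the log2 fold change of GW over Veh ran from -0.19 to 0.032 for Mpc2 in WT, -0.055 to 0.27 in D, -0.12 to 0.0018 in A, -0.064 to 0.25 in DA and -0.043 to 0.044 on average. That of Pdha1 ran from -0.14 to 0.037 in D, -0.11 to 0.0043 in A and -0.17 to 0.017 in DA. That of Pdhb ran from -0.21 to 0.12 in D. That of Dld ran from -0.089 to 0.11 in WT, -0.27 to 0.073 in DA and -0.056 to 0.029 on average. The response differences from WT ran from -0.031 to 0.13 for Mpc1 in A, -0.053 to 0.15 for Mpc1 in D and -0.042 to 0.29 for Pdhb in D. In CPM, Pdk2 ran from -0.796 to 0.286 in WT and from -1.25 to 1.03 in DA, Pdk3 from -1.48 to 0.0541 in WT, -2.20 to 0.524 in A and -5.46 to -3.73 in DA, and Pdk4 from -1.13 to 1.41 in D, 2.75 to 5.21 in WT and 2.31 to 4.54 in A. Pdk3 in DA had an exact permutation p of 0.0357 without replicate 3 of Veh in DA.

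Genes called over the alternatives numbered 12 to 45 in WT, 0 to 12 in D, 3 to 28 in A, 0 to 9 in DA and 14 to 62 on average. The kinases rest on 21 to 189 counts each over 38 libraries, and no detection limit for their differences was computed. The second run holds 1 GW library of D and 1 Veh library of DA, so values from that run alone rest on lone libraries there, assumed to vary like the other groups.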
